A study of Homo sapiens with 95 samples.

Results

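The 6 aldo-keto reductase genes of the AKR1 family that are described here, AKR1A1, AKR1B1, AKR1B10, AKR1C1, AKR1C2 and AKR1C3, were taken by symbol from the 23895 genes listed for every well. Expression was measured by 3′DGE (digital gene expression), in which a polyadenylated transcript is read near its 3′ end and counted once by its unique molecular identifier (UMI). AALE is an immortalized line of human bronchial epithelium. All 95 wells held AALE cells carrying a construct: HCRED cells carried the empty vector with the HcRed reporter and were the control of the cells overexpressing NRF2 (gene NFE2L2), FGFR1, NRG1 or PIK3CA, while GFP cells received the Cas9-EGFP plasmid without a guide and were the control of the FAT1 and CDKN2A knockouts. The cells were given DMSO as the vehicle, or 24 µg/ml of CSC (cigarette smoke condensate), or 173 µM of BaP (benzo[a]pyrene, a polycyclic aromatic hydrocarbon), or 490 µM of NNK, a nitrosamine of tobacco. The promoter of the overexpression constructs, the number of clones and the length of exposure were not given in the sources used here.

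Aldo-keto reductases are cytosolic enzymes that use NADPH to reduce the carbonyl group of aldehydes and ketones to an alcohol. AKR1A1 (aldehyde reductase) and AKR1B1 (aldose reductase, the first enzyme of the polyol pathway) act on a broad range of aldehydes and sugars, and AKR1B10 reduces retinal and lipid aldehydes. AKR1C1, AKR1C2 and AKR1C3 are hydroxysteroid dehydrogenases. The AKR1C enzymes are also known to oxidise dihydrodiols of polycyclic aromatic hydrocarbons and to reduce the keto group of NNK, and AKR1C3 reduces prostaglandin D2. Several of these genes are textbook targets of the transcription factor NRF2, which is active in oxidative and electrophile stress.

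Levels are given as CPM, the UMI count scaled to the total of the well, which need no scaling by gene length since a transcript adds a single count whatever its length. The main comparisons used the 82 wells whose replicate number had 1 digit, with 692446 to 1895735 counts a well and 3 wells in each compared group. In these wells, 3 counts corresponded to between 1.58 and 4.33 CPM. For the wells with 2-digit replicate numbers, the labels do not say whether they were separate cultures or repeat libraries. All 11 basal airway epithelial markers checked had a mean of at least 10 CPM, and their sum ran from 684 to 1428 CPM. The sum of 6 fibroblast markers was at most 15.8 CPM, and that of the 3 secretory markers listed was at most 0.773 CPM. That of 5 leukocyte markers lay between 9.23 and 44 CPM. Among these, CD68 had a mean of 18.4 CPM, LYZ of 3.86 CPM and PTPRC of 0.032 CPM, with CD3E and CD79A at 0. The part of these other markers in the results was not tested. Every plate row held a single chemical. Each population kept the same columns under every chemical and shared them with another population in the other row of that chemical. NRF2 and HCRED cells, for example, stood in the same columns and in different rows. Chemical and row, and population and plate position, therefore cannot be told apart. Replicate 2 of NRG1 cells under NNK stood apart from the other wells. The calls of the 6 genes for NNK against DMSO and for BaP against NNK are given with and without it. So is the test of NNK responses between populations. Other results that include it, such as the gene lists under NNK and the likeness of patterns, are given only with it.

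The likeness of the transcripts bears on how well the counts of these genes can be separated, so it was examined first. On the hg19 assembly the annotation placed AKR1A1 at chr1:46016215-46035721 on the plus strand. AKR1B1 at chr7:134127108-134144036 on the minus strand and AKR1B10 at chr7:134212319-134226164 on the plus strand were neighbours. AKR1C1 at chr10:5005445-5025475 and AKR1C3 at chr10:5077546-5149878, both on the plus strand, lay on either side of AKR1C2 at chr10:5029967-5060223 on the minus strand. Over the 972 coding bases AKR1C1 and AKR1C2 had the same base at 953 positions, an identity of 98.0%. AKR1C3 shared 91.5% of its coding bases with AKR1C1 and 91.0% with AKR1C2, and AKR1B1 shared 76.2% of aligned bases with AKR1B10.

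The last 60 coding bases on hg19, ending in the stop codon, are shown to compare how far the coding ends of the AKR1C genes can be told apart. Capitals mark bases that differ from AKR1C1.
AKR1C1: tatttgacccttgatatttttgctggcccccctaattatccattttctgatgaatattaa
AKR1C2: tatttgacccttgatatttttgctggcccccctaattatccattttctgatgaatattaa
AKR1C3: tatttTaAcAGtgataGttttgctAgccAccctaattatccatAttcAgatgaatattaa
In this stretch AKR1C2 differed from AKR1C1 at 0 positions and AKR1C3 at 9 positions. A window the length of a read, 46 bases, was then moved along the last 300 coding bases and the 90 bases after them, which gave 345 windows for each gene. For AKR1C2, 345 of 345 windows also occurred without a mismatch in another transcript of the AKR1 family, pseudogenes included, and for AKR1C1 the share was 86.7%. AKR1C3 had such a match in 36.5% of windows, AKR1B10 in 17.4% and AKR1B1 in 10.7%, the last to pseudogenes of AKR1B1 itself. AKR1A1 had none, also when 3 mismatches were allowed. With 3 mismatches allowed, the share rose to 100% for AKR1C1 and AKR1C2, 86.4% for AKR1B10, 73.0% for AKR1B1 and 51.0% for AKR1C3. These windows lie near the coding end and do not cover every annotated transcript end. The canonical transcripts of AKR1C1 and AKR1C2 run on for 5541 and 2221 bases after the coding end, and those of the other 4 genes for 93 to 372 bases. Over the last 390 bases of the canonical transcripts, again 345 windows for each gene, AKR1C2 had an exact match in 220 windows, in transcripts of AKR1C1, and AKR1C3 in 38. The other 4 genes, AKR1C1 among them, had none there. Which of these ends the reads came from is not given by the count tables, so the windows do not show how well the UMIs of AKR1C1 and AKR1C2 were separated. The 3 AKR1C genes are also given as the sum of their counts, a choice made after the data were seen. UMIs left out because they fit several of these genes would be missing from the sum as well.

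**Figure D1:**
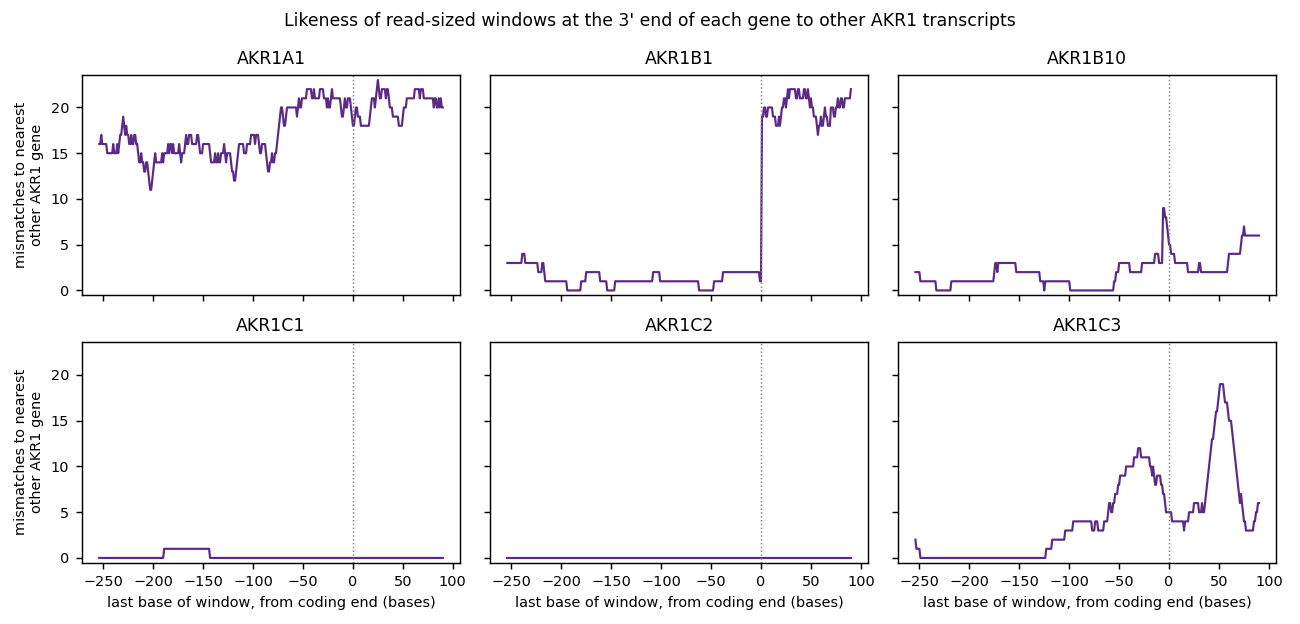
Mismatches between each 46-base window at the 3′ end of a gene (x axis, position of the window's last base in bases from the coding end, dotted line) and the nearest window of another AKR1 transcript (y axis). The lines of AKR1C1 and AKR1C2 stay at or close to 0, whereas that of AKR1A1 stays above 10.

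The start-site regions of the AKR1C genes are shown because these genes moved together. RefSeq promoter entries on GRCh38.p14 matched 5 of the 6 genes. The 250 bases before the start site are printed on the gene's own strand, at chr10:4963165-4963414 (plus) for AKR1C1, chr10:5003858-5004107 (minus) for AKR1C2 and chr10:5094164-5094413 (plus) for one of the 2 entries of AKR1C3. Capitals mark a CCAAT box, the letters CCAAT read on either strand.
AKR1C1: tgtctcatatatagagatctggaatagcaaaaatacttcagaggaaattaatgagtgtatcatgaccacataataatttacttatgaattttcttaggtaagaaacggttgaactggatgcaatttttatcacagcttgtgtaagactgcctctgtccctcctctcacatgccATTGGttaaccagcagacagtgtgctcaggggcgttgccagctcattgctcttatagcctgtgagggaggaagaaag
AKR1C2: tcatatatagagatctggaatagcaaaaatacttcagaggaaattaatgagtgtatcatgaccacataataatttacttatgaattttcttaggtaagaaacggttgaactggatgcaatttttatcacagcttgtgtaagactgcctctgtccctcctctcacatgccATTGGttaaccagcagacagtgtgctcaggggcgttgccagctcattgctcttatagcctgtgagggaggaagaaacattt
AKR1C3: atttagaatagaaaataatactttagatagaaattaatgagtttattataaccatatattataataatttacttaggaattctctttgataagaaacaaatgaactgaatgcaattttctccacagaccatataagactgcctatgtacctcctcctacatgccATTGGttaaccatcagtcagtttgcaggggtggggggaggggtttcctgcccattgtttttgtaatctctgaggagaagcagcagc
The AKR1C1 and AKR1C2 entries had the same base at 96.5% of aligned positions, and this AKR1C3 entry matched them at 69.5% and 70.2%. The CCAAT box lay 77 to 73 bases before the start in AKR1C1, 81 to 77 in AKR1C2 and 86 to 82 in this AKR1C3 entry. The letters CCAAT occur on either strand in 32% of the 35116 RefSeq promoter windows of this length. The core of the antioxidant response element that NRF2 binds, TGACNNNGC on either strand, was in none of the windows of the 5 genes and in 10.9% of all windows. The core of the xenobiotic response element bound by the aryl hydrocarbon receptor, GCGTG on either strand, was in the windows of AKR1B1 and of no other of the 5 genes, against 32.2% of all windows. None of these 3 motifs overlapped another in these windows.

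All 6 genes were detected, in the order AKR1B1, AKR1C3, AKR1A1, AKR1C2, AKR1B10 and AKR1C1 by counted level. UMIs that fit several genes would be left out of the counts. Levels of AKR1C1 and AKR1C2, which shared the most windows near the coding end, may therefore be too low. How far this affected the order was not tested. Over the 82 wells the mean levels were 58.6, 33.7, 28.0, 12.8, 11.3 and 7.9 CPM. AKR1B1 was above AKR1C3 in 74 of 82 wells, AKR1A1 above AKR1C2 in 77 and AKR1B10 above AKR1C1 in 59. AKR1C3 was above AKR1A1 in only 47 wells, and AKR1C2 above AKR1B10 in 41, and the order of these neighbours was not tested. That of AKR1C3 and AKR1A1 was not the same under each chemical. Their means were 22.2 and 25.9 CPM in the DMSO wells, and 50.3 and 28.7 CPM in the CSC wells. The genes differed in how widely they varied. The group means of AKR1B1 ran from 42.2 CPM (GFP cells, DMSO) to 72.9 CPM (NRG1 cells, NNK), a ratio of 1.73. The highest of these groups held the well that stood apart, at 86.8 CPM, beside wells of 54.2 and 77.7 CPM. The group means of AKR1A1 ran from 16.5 CPM (CDKN2A cells, DMSO) to 36 CPM (NRF2 cells, CSC), a ratio of 2.18. For AKR1B10 the range was 4.09 CPM (PIK3CA cells, DMSO) to 24.2 CPM (NRF2 cells, CSC), and for AKR1C3 7.97 CPM (FAT1 cells, DMSO) to 77.1 CPM (HCRED cells, CSC), ratios of 5.9 and 9.67. AKR1C2 ran from 3.38 CPM in FAT1 cells under NNK to 28.9 CPM in NRF2 cells under BaP. The low end of AKR1C1 was FAT1 cells under DMSO, where the 3 wells held 3, 1 and 1 counts, and the high end was HCRED cells under CSC, at 21.7 CPM.

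**Figure D2:**
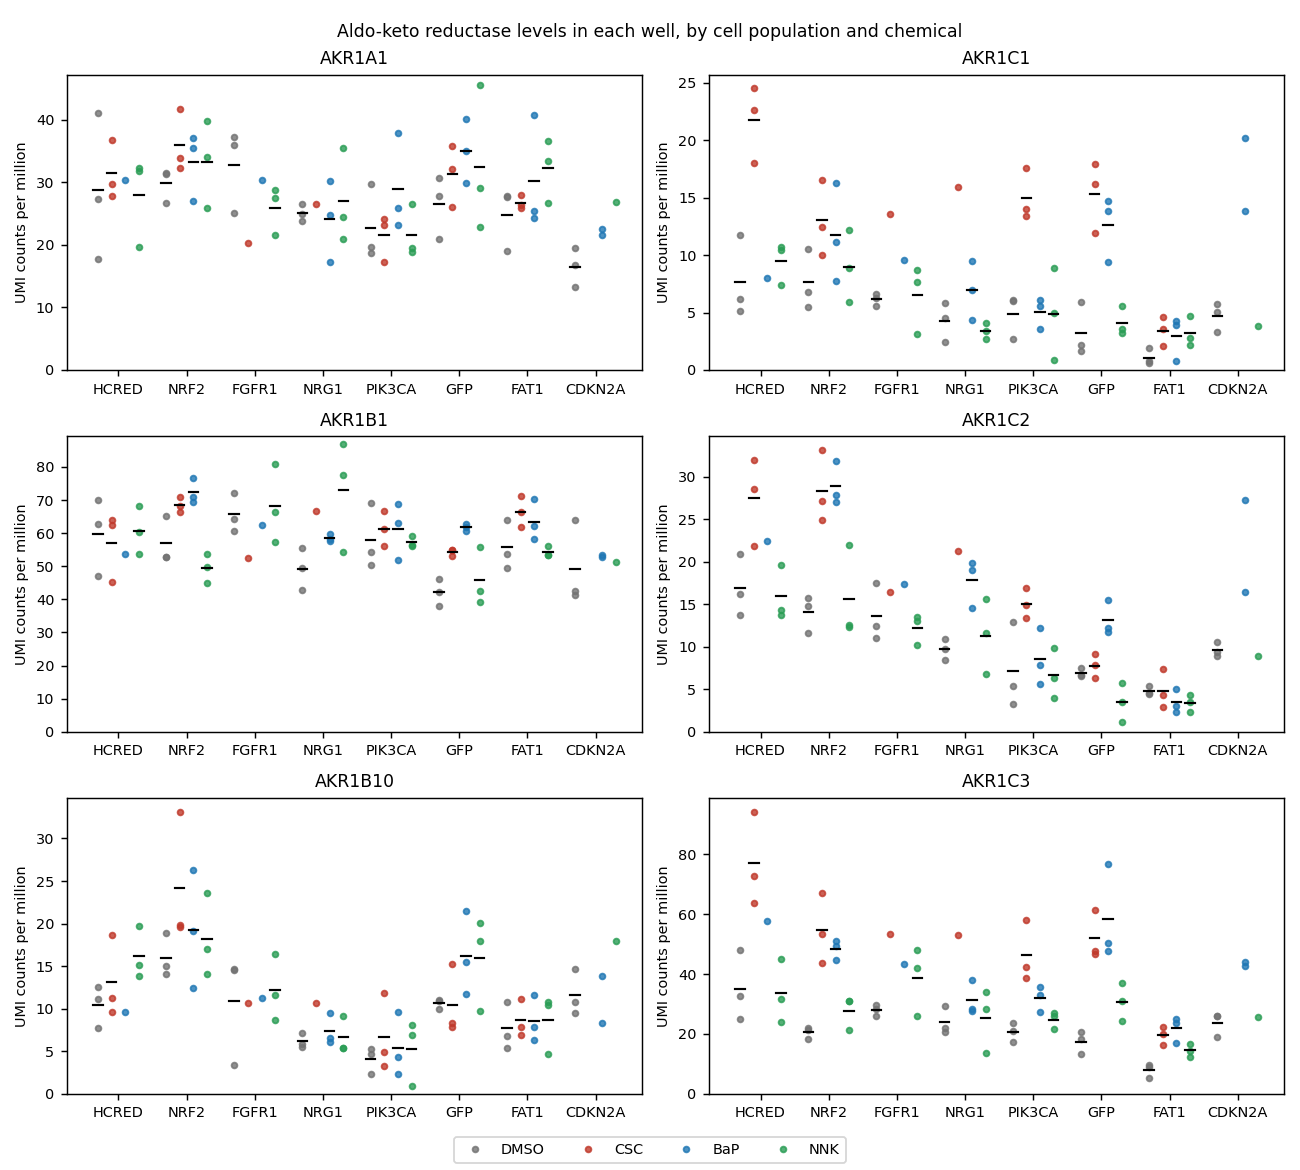
Level of each gene (y axis, CPM) in every 1-digit well, by population (x axis) and chemical (colour); points are wells and black bars are means of groups of 3. AKR1C3 under CSC sits above DMSO in every population with 3 wells of each, while AKR1A1 wells of the 4 chemicals overlap in most populations.

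The first comparison asked which of the genes responded to CSC. AKR1C1, AKR1C2 and AKR1C3 rose, and AKR1A1, AKR1B1 and AKR1B10 did not pass the test. Across HCRED, NRF2, PIK3CA, GFP and FAT1 cells AKR1C3 ran from 5.4 to 47.9 CPM with a median of 20.5 in the 15 DMSO wells, and from 16.4 to 94.4 CPM with a median of 47.6 in the 15 CSC wells. Its fold change was 2.44 (log2 1.28, SE 0.10, adjusted p = 2.86e-18 by limma-voom with population as a covariate). AKR1C1 had DMSO wells of 0.566 to 11.8 CPM (median 5.51) and CSC wells of 2.11 to 24.5 CPM (median 14.0), with a fold change of 2.75 (log2 1.46, SE 0.18, limma adjusted p = 2.48e-09). AKR1C2 went from a median of 7.55 CPM (3.31 to 20.9) to one of 15.0 CPM (2.86 to 33.1), which was 1.7-fold (log2 0.76, SE 0.14, limma adjusted p = 5.99e-05). Pooled over populations the DMSO and CSC wells overlapped for all 3 genes. Within single populations they overlapped for AKR1C2 in GFP and FAT1 cells, for AKR1C1 in NRF2 cells and for AKR1C3 in none. The summed AKR1C counts rose 2.27-fold (log2 1.18, SE 0.07, limma adjusted p = 1.18e-22), from a median of 29.3 to one of 85.1 CPM. In such bulk wells, more cells expressing a gene and more RNA in each cell cannot be told apart. These 3 genes of 6 compare with 5.81% of the 11371 genes tested that passed in either direction and 2.95% that passed as higher. The median log2 change of the 6 genes was 0.53, against -0.001 over all genes tested.

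Among the genes that did not pass, AKR1B10 had medians of 10.8 CPM under DMSO and 11.1 CPM under CSC (log2 0.30, SE 0.15, limma adjusted p = 0.268). AKR1B1 had medians of 52.8 and 62.5 CPM (limma adjusted p = 0.124) and AKR1A1 of 27.8 and 28.0 CPM (limma adjusted p = 0.412). AKR1B1 and AKR1B10 passed the threshold when the wells with 2-digit replicate numbers were included as separate samples, with limma adjusted p of 0.00656 and 0.0159. Such wells may be repeat libraries, and the share of all genes that passed in that fit is not given, so these calls are not a result about the 2 genes. AKR1B1 also passed without HCRED cells, at 0.0498.

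BaP gave the same 3 genes and AKR1B1. The fit covered NRF2, NRG1, PIK3CA, GFP and FAT1 cells, 15 wells of each chemical. AKR1C3 went from a median of 20.5 CPM (5.4 to 29.2) under DMSO to 35.8 CPM (17.0 to 76.8) under BaP, a 2.11-fold rise (log2 1.08, SE 0.11, limma adjusted p = 1.92e-11). AKR1C2 rose 1.73-fold, from a median of 7.55 to one of 12.2 CPM (log2 0.79, SE 0.15, limma adjusted p = 4.82e-05), and AKR1C1 rose 1.84-fold, from 4.54 to 6.92 CPM (log2 0.88, SE 0.22, limma adjusted p = 0.00336). AKR1B1 changed least of the 4, from a median of 52.7 to 62.1 CPM (1.25-fold, log2 0.32, SE 0.07, limma adjusted p = 0.000421), and its SE was also the smallest of the 4. The sum of the AKR1C counts rose 1.97-fold (log2 0.98, SE 0.09, limma adjusted p = 4.67e-13). Of all 11306 genes tested, 9.16% passed in either direction and 5.04% as higher. AKR1A1 (medians of 26.7 and 30 CPM, limma adjusted p = 0.0868) and AKR1B10 (7.11 and 9.59 CPM, log2 0.33, limma adjusted p = 0.175) did not pass, although AKR1A1 passed by the edgeR quasi-likelihood test, at an adjusted p of 0.0474. The AKR1C1 call rested on GFP cells, without which its limma adjusted p was 0.134 (log2 0.56), and on the wells of replicate 2, without which it was 0.0788.

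Under NNK AKR1C3 was the gene that passed, over 7 populations and 21 wells of each chemical. It had a median of 21.2 CPM (5.4 to 47.9) under DMSO and of 26.9 CPM (12.3 to 48.1) under NNK (1.27-fold, log2 0.35, SE 0.12, limma adjusted p = 0.0494). The wells of both chemicals covered almost the same range. Of the 11349 genes tested 7.22% passed. Without replicate 2 of NRG1 cells under NNK the AKR1C3 value was log2 0.46 (SE 0.09, limma adjusted p = 8.25e-05) and AKR1B10 passed as well (log2 0.39, limma adjusted p = 0.045), with 19.9% of 11279 genes past the threshold. The losses that follow start from the fit that kept this well, and are not given for the fit without it. The AKR1C3 call was lost without any one of NRF2, FGFR1, PIK3CA, GFP or FAT1 cells (limma adjusted p from 0.0941 to 0.209). It was also lost without the wells of replicate 1 (0.411) and without those of replicate 3 (0.252). AKR1C1 had medians of 5.59 and 4.93 CPM, although its fitted change was upward (log2 0.24, SE 0.19, limma adjusted p = 0.521). AKR1C2 had medians of 11 and 10.2 CPM (log2 -0.08, SE 0.14, limma adjusted p = 0.813), and neither gene passed. The summed AKR1C counts had medians of 36.7 and 43.6 CPM (log2 0.24, SE 0.09, limma adjusted p = 0.122).

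**Figure D3:**
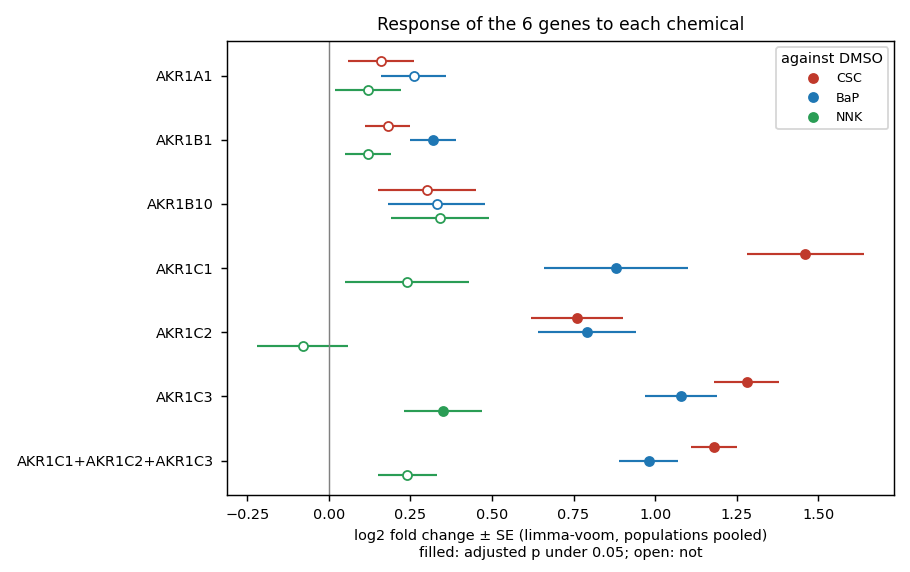
Log2 fold change against DMSO (x axis, point, with a bar of 1 SE on each side) of the 6 genes and of the summed AKR1C counts under CSC, BaP and NNK, from limma-voom over the populations with 3 wells of both; filled points have an adjusted p under 0.05. The AKR1C points under CSC and BaP lie between 0.76 and 1.46, and those under NNK at or below 0.35.

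The chemicals were also compared with each other in the populations that had 3 wells of both. No gene of the 6 passed between CSC and BaP, where 4.58% of 11277 genes did. For AKR1C1 the medians were 12.9 CPM under CSC and 6.91 CPM under BaP (log2 0.50, 95% interval 0.12 to 0.88, limma adjusted p = 0.132). For AKR1C3 they were 45.2 and 40.3 CPM (log2 0.05, 95% interval -0.15 to 0.24, limma adjusted p = 0.88). With the 2-digit wells included as separate samples AKR1C1 (log2 0.63, limma adjusted p = 0.000299) and AKR1C3 (log2 0.25, limma adjusted p = 0.011) passed as higher under CSC. These wells may be repeat libraries, and the share of all genes that passed in that fit is not given. Those calls are therefore not a result about the 6 genes. CSC exceeded NNK for AKR1C1 (2.04-fold, log2 1.03, SE 0.19), AKR1C2 (1.75-fold, log2 0.81, SE 0.14) and AKR1C3 (1.75-fold, log2 0.81, SE 0.10). Their limma adjusted p values were 5.5e-05, 1.93e-05 and 1.36e-09, in a comparison where 12.3% of 11171 genes passed. BaP exceeded NNK for AKR1C2 (1.84-fold, log2 0.88, SE 0.18, limma adjusted p = 0.00127) and AKR1C3 (1.59-fold, log2 0.67, SE 0.12, limma adjusted p = 0.000135), where only 0.996% of 11245 genes passed. Without replicate 2 of NRG1 cells under NNK these were log2 0.71 and 0.54, and both passed (5.1% of 11111 genes). Starting from the fit that kept this well, the AKR1C2 call was lost without NRF2 cells (limma adjusted p = 0.0762). It was also lost without the wells of replicate 2 (0.0626) and without those of replicate 3 (0.0726). AKR1C1 did not pass between BaP and NNK (log2 0.65, SE 0.22, limma adjusted p = 0.214).

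Each population was then examined alone, 3 wells of a chemical against its 3 DMSO wells. AKR1C3 rose under CSC in 5 of 5 populations by limma-voom, with every CSC well above every DMSO well in each. By DESeq2 it passed in HCRED and PIK3CA cells and not in FAT1 cells, and no adjusted p was given for the other 2 populations. Without DESeq2's independent filtering, the step that withholds adjusted p-values from genes of low count, it passed in 4 of 5 and again not in FAT1 cells. Over all genes, the test within a single population was passed under CSC by 1.04% in HCRED, 1.62% in NRF2, 1.42% in PIK3CA, 1.29% in GFP and 0.457% in FAT1 cells. In HCRED cells AKR1C3 was at 47.9, 25.0 and 32.5 CPM under DMSO and at 94.4, 73.0 and 63.9 CPM under CSC, a 2.27-fold rise. In FAT1 cells, where it was lowest, it was at 8.89, 9.63 and 5.4 CPM under DMSO and at 22.2, 20 and 16.4 CPM under CSC, 2.31-fold. The folds of the 5 populations lay close together, from 2.27 to 2.87, although their DMSO means differed by up to 4.41-fold. Such complete separation in all 5 populations occurred for 0.431% of the genes tested, and in 7.13% of single pairs of gene and population. For AKR1C1 the CSC wells were all above the DMSO wells in 4 populations, and the test was passed in HCRED, PIK3CA and GFP cells with folds of 2.84, 3.2 and 4.81, whereas by DESeq2, with or without that filtering, it was passed in 0 of 5. In GFP cells AKR1C1 was at 5.87, 1.66 and 2.2 CPM under DMSO and at 16.2, 11.9 and 17.9 CPM under CSC. In FAT1 cells the AKR1C1 counts were 3, 1 and 1 under DMSO and 5, 8 and 4 under CSC, too few for a fold.

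By limma-voom AKR1C2 rose under CSC in NRF2 cells (1.96-fold) and in PIK3CA cells (2.5-fold), and by DESeq2, with or without that filtering, in none. Its wells in NRF2 cells went from 15.7, 11.6 and 14.8 CPM to 33.1, 24.9 and 27.1 CPM. In GFP cells the AKR1C2 wells were at 7.55, 6.65 and 6.6 CPM under DMSO and at 6.28, 9.17 and 7.83 CPM under CSC, so the groups overlapped, and in FAT1 cells they overlapped as well. The difference between populations itself was tested as an interaction term and did not pass for AKR1C2 (F = 2.45, limma adjusted p = 0.853) or for any of the other 5 genes. That test passed for 0.106% of all genes. The summed AKR1C counts passed in 5 of 5 populations, with folds of 1.93 to 2.62.

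Under BaP the AKR1C3 folds of the 5 populations ran from 1.3 to 3.39. Over all genes, the test was passed under BaP by 2.06% in NRF2, 0.895% in NRG1, 1.17% in PIK3CA, 1.51% in GFP and 1.63% in FAT1 cells. In GFP cells AKR1C3 went from 13.4, 18.3 and 20.5 CPM under DMSO to 50.3, 47.9 and 76.8 CPM under BaP, and it also passed in NRF2 cells (2.42-fold) and FAT1 cells (2.71-fold). In NRG1 cells it was at 22, 20.8 and 29.2 CPM under DMSO and 28.4, 27.7 and 37.9 CPM under BaP, and the groups overlapped. In PIK3CA cells all BaP wells (32.9, 35.8 and 27.2 CPM) were above the DMSO wells (17.2, 20.8 and 23.6 CPM), but the test was not passed (1.6-fold, limma adjusted p = 0.102). The BaP wells of a gene were all above the DMSO wells in 6.73% of pairs of gene and population. The interaction test for AKR1C3 gave F = 6.86 (limma adjusted p = 0.0672), and it passed by edgeR, with an adjusted p of 0.00618, a test that 0.106% of genes passed by limma and 0.177% by edgeR. AKR1C1 and AKR1B1 passed under BaP in GFP cells, 4.28-fold and 1.54-fold. AKR1C2 passed in NRF2 cells, 2.12-fold. By DESeq2 AKR1C3 passed in NRF2 and GFP cells and AKR1C2 in NRF2 cells. Without independent filtering, AKR1C3 passed in the same 3 populations under BaP, and AKR1C1, AKR1C2 and AKR1B1 in none. AKR1B1 in GFP cells went from 46.2, 42.4 and 38.1 CPM to 61.9, 60.6 and 62.7 CPM.

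No gene of the 6 passed under NNK in any of the 7 populations by limma-voom. The share of all genes that passed was 0.00866% in NRG1, 0.564% in FGFR1, 0.809% in GFP, 1.42% in PIK3CA, 1.84% in NRF2, 2.56% in HCRED and 3.19% in FAT1 cells. The values nearest the threshold were those of AKR1C3 in GFP cells (30.7 ± 6.2 against 17.4 ± 3.63 CPM, SD, n = 3, limma adjusted p = 0.074) and in FAT1 cells (14.4 ± 2.13 against 7.97 ± 2.26 CPM, SD, n = 3, limma adjusted p = 0.0794), where all NNK wells were above all DMSO wells, as in 5.41% of pairs of gene and population. AKR1C2 lay the other way in these populations. Its NNK wells were at 5.71, 1.12 and 3.53 CPM in GFP cells and at 3.46, 4.32 and 2.35 CPM in FAT1 cells, all below the DMSO wells of the same population (6.6 to 7.55 and 4.44 to 5.4 CPM), as in 10.1% of pairs. Neither of these AKR1C2 differences passed (limma adjusted p = 0.559 and 0.726). The interaction test under NNK passed for none of the 6 genes and for 0.0176% of all genes, and for none of the 6 without replicate 2 of NRG1 cells under NNK (0.0621% of all genes). In all, 16 single-population responses passed by limma-voom. By DESeq2 5 passed, and no adjusted p was given for 6 of the 16. Without independent filtering 7 passed, all of them AKR1C3.

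**Figure D4:**
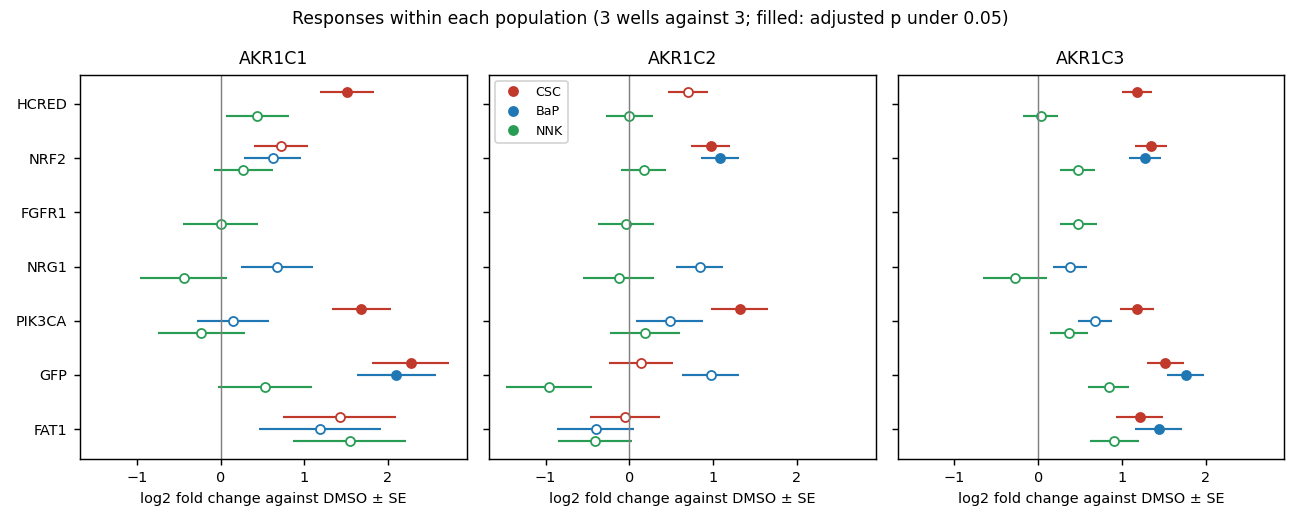
Log2 fold change of AKR1C1, AKR1C2 and AKR1C3 against DMSO (x axis, point with a bar of 1 SE on each side) within each population (y axis) under CSC, BaP and NNK, 3 wells against 3; filled points have an adjusted p under 0.05. The CSC points of AKR1C3 line up between 1.18 and 1.52 in 5 populations, while the AKR1C2 points of GFP and FAT1 cells under CSC lie near 0.

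The populations were compared under DMSO to see whether the constructs themselves were accompanied by other levels of these genes. The overexpression populations share their HCRED wells, the knockout populations share their GFP wells, and the DMSO wells also served the chemical comparisons. In NRF2 cells NFE2L2 itself was at 152 CPM against 44.8 CPM in HCRED cells. None of the 6 genes passed in NRF2 cells under DMSO, where 4.91% of 11217 genes did. AKR1B10 was at 18.9, 15.0 and 14.1 CPM in NRF2 cells and at 11.1, 12.5 and 7.74 CPM in HCRED cells (log2 0.69, limma adjusted p = 0.19). AKR1C3 went the other way, at 21.2, 18.4 and 21.8 CPM against 47.9, 25.0 and 32.5 CPM (log2 -0.61, limma adjusted p = 0.091; edgeR adjusted p = 0.0286). In both cases the groups did not overlap. NRF2 wells were all above HCRED wells for 6.56% of genes and all below for 13.5%. Over DMSO, CSC and NNK together, with chemical as a covariate, AKR1B10 was higher in NRF2 cells (1.53-fold, log2 0.62, SE 0.17, limma adjusted p = 0.00768) and AKR1C3 lower (0.748-fold, log2 -0.42, SE 0.12, limma adjusted p = 0.0126), in a fit where 10.7% of genes passed. Under CSC alone AKR1B10 was at 33.1, 19.6 and 19.8 CPM in NRF2 cells against 18.6, 11.3 and 9.63 CPM in HCRED cells (log2 0.94, SE 0.28, limma adjusted p = 0.0462), where 2.88% of genes passed and 9.25% had all NRF2 wells above all HCRED wells. That call was lost without replicate 1 of NRF2 cells (limma adjusted p = 0.244) and without replicates 2 or 3 of HCRED cells (0.274 and 0.244). DESeq2 gave no adjusted p for it, and one of 0.534 without independent filtering.

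PIK3CA cells had less AKR1B10 and AKR1C2. AKR1C2 was at 3.31, 5.37 and 12.9 CPM in PIK3CA cells and at 13.7, 16.2 and 20.9 CPM in HCRED cells, 0.385 times the control level (log2 -1.38, SE 0.34, limma adjusted p = 0.00457). AKR1B10 was at 5.3, 4.7 and 2.28 CPM against 11.1, 12.5 and 7.74 CPM (log2 -1.25, SE 0.40, limma adjusted p = 0.0496). All PIK3CA wells of both genes were below all HCRED wells, as they were for 13.3% of genes, while 5.4% of genes passed the test. AKR1C2 did not pass without replicate 1 of PIK3CA cells (limma adjusted p = 0.129). AKR1B10 did not pass without replicates 1 or 2 of HCRED cells or without any single PIK3CA well (limma adjusted p from 0.0861 to 0.241). DESeq2 gave no adjusted p for either gene, and without independent filtering adjusted p values of 0.282 for AKR1C2 and 0.481 for AKR1B10. Over all shared chemicals 4 genes were lower in PIK3CA cells, where 13.2% of genes passed: AKR1B10 (0.392-fold, log2 -1.35, SE 0.26), AKR1C2 (0.488-fold, log2 -1.04, SE 0.18), AKR1C1 (0.648-fold) and AKR1C3 (0.669-fold, log2 -0.58, SE 0.12). Their limma adjusted p values were 5.81e-05, 1.44e-05, 0.0405 and 0.000227.

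In FAT1 knockout cells AKR1C3 was lower and AKR1B1 higher than in GFP cells. AKR1C3 was at 8.89, 9.63 and 5.4 CPM against 13.4, 18.3 and 20.5 CPM (0.489-fold, log2 -1.03, SE 0.30, limma adjusted p = 0.0101), and AKR1B1 at 49.5, 53.8 and 64.0 CPM against 46.2, 42.4 and 38.1 CPM (1.36-fold, log2 0.44, limma adjusted p = 0.0496). The groups did not overlap for either gene, where 17.2% of genes lay below and 11.9% above without overlap, and 14.1% of all genes tested passed. AKR1C3 was lost without replicate 3 of FAT1 cells (limma adjusted p = 0.0741) or of GFP cells (0.069), and AKR1B1 without any well but replicate 1 of FAT1 cells (0.0533 to 0.185). Neither passed by DESeq2 (adjusted p = 0.0836 and 0.156). Over all 4 chemicals AKR1C3 was 0.434-fold (log2 -1.21, SE 0.11, limma adjusted p = 4.2e-14) and AKR1C1 0.33-fold (log2 -1.6, SE 0.26, limma adjusted p = 6.19e-07) in FAT1 cells. AKR1C2 (0.57-fold) and AKR1B10 (0.666-fold) were also lower and AKR1B1 higher (1.25-fold) in that fit, in which 33.1% of all genes passed. In CDKN2A knockout cells AKR1A1 was the gene that passed, at 16.7, 19.4 and 13.4 CPM against 21, 30.7 and 27.9 CPM in GFP cells (0.579-fold, log2 -0.79, SE 0.24, limma adjusted p = 0.012), in a comparison where 17.9% of genes did and 12.4% had all CDKN2A wells below. It was lost without replicate 3 of CDKN2A cells (limma adjusted p = 0.0782), replicate 2 of GFP cells (0.0903) or replicate 3 of GFP cells (0.0624), and by DESeq2 (adjusted p = 0.0675).

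The control populations also differed. In GFP cells AKR1C2 was at 7.55, 6.65 and 6.6 CPM against 13.7, 16.2 and 20.9 CPM in HCRED cells (0.441-fold, log2 -1.18, SE 0.32, limma adjusted p = 0.0096). AKR1C3 was at 13.4, 18.3 and 20.5 CPM against 47.9, 25.0 and 32.5 CPM (0.544-fold, log2 -0.88, SE 0.24, limma adjusted p = 0.00948). GFP wells were below HCRED wells without overlap for both genes, as for 15.9% of genes, and 10.8% passed. Over the chemicals both populations shared, AKR1C2 was 0.324-fold (log2 -1.63, limma adjusted p = 6.51e-09) in GFP cells, and AKR1C1, AKR1C3 and AKR1B1 also passed as lower, as part of the 23.3% of genes that passed. AKR1C2 was just over the threshold without replicate 3 of HCRED (limma adjusted p = 0.0551) or of GFP cells (0.0503), and AKR1C3 without replicate 1 of HCRED (0.105) or of GFP cells (0.062). By DESeq2 AKR1C3 passed (adjusted p = 0.0335) and AKR1C2 had no adjusted p, and without independent filtering neither passed (0.0753 and 0.12). AKR1B1 was lower in GFP cells by edgeR (log2 -0.47, adjusted p = 0.034) but not by limma-voom (adjusted p = 0.0614). Levels of these genes in knockout and overexpression populations are therefore compared only with their own control. None of the 6 genes passed in FGFR1 cells (0.914% of genes did) or in NRG1 cells (3.08%). In NRG1 cells the sum of the AKR1C counts was lower, at 36.2, 35.0 and 42.7 CPM against 66.7, 52.9 and 59.6 CPM (log2 -0.56, limma adjusted p = 0.0172). That sum was also lower in PIK3CA cells (log2 -0.84, limma adjusted p = 0.000288), in FAT1 cells (log2 -0.92, limma adjusted p = 0.00229) and in GFP against HCRED cells (log2 -1.04, limma adjusted p = 1.45e-05).

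**Figure D5:**
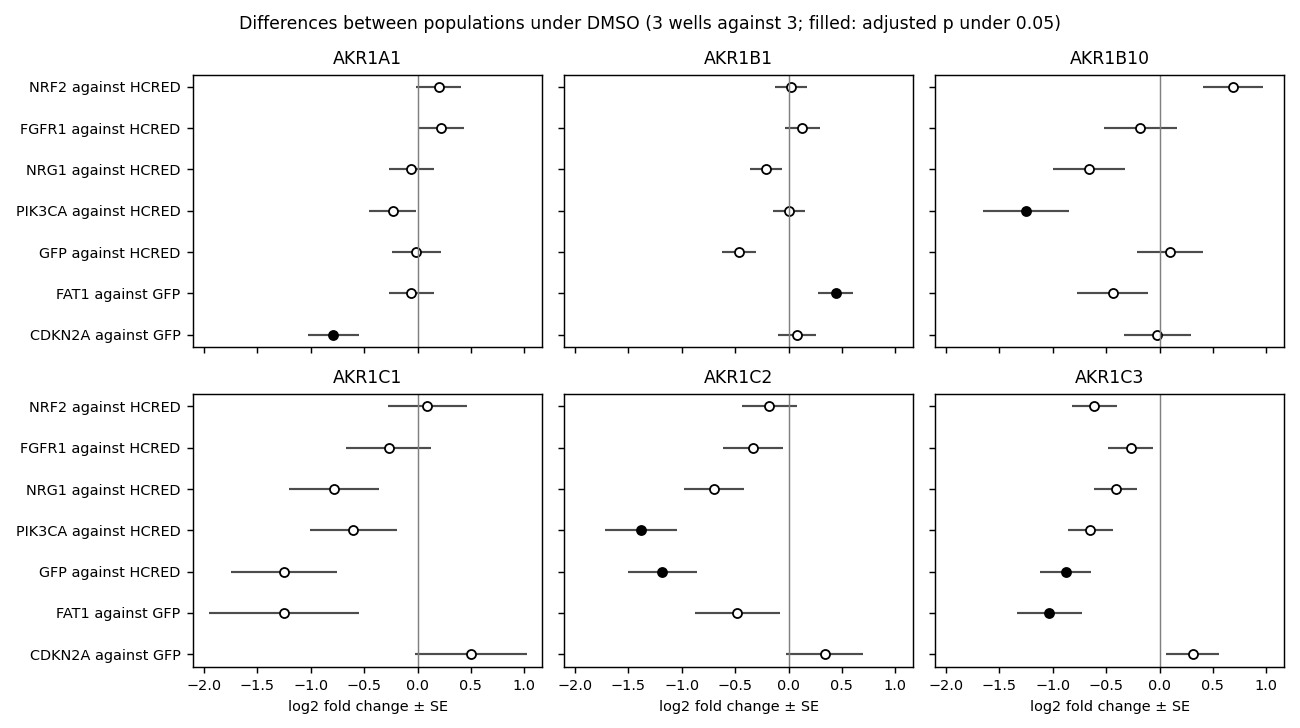
Log2 fold change under DMSO (x axis, point with a bar of 1 SE on each side) of each gene in 7 comparisons of a population with a control (y axis), 3 wells against 3; filled points have an adjusted p under 0.05. AKR1C2 in PIK3CA cells (-1.38) and AKR1C3 in FAT1 cells (-1.03) are among the filled points, and AKR1A1 is filled in CDKN2A cells alone.

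Of 11 other aldo-keto reductases listed, 3 passed the filter on low counts under CSC, and 0 of them changed under any of the 3 chemicals. AKR7A2, an aflatoxin aldehyde reductase, was more abundant than any of the 6 genes, with a mean of 173 CPM over the 82 wells, while the other 10 had means of at most 1.12 CPM. It was at 167 ± 16.9 CPM (SD, n = 15) under CSC against 177 ± 25.2 CPM (SD, n = 15) under DMSO. Between populations AKR7A2 was higher in NRF2 cells than in HCRED cells (1.25-fold, limma adjusted p = 0.0204), and lower in FAT1 (0.783-fold, limma adjusted p = 0.00579) and CDKN2A cells (0.632-fold, limma adjusted p = 4.23e-05) than in GFP cells. It was also higher in GFP than in HCRED cells (1.26-fold, limma adjusted p = 0.00945).

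The lists of related pathways were described by their counts. Over all genes tested, 2.95% rose under CSC, 5.04% under BaP and 3.07% under NNK, so a single gene past the threshold in a list of about 10 is not a result about that list. Of the genes known as NRF2 targets outside the AKR1 family, 12 of 20 tested rose under CSC, 11 of 20 under BaP and 5 of 20 under NNK, where 2 fell. NQO1, a quinone reductase, rose 2.4-fold under CSC (376 against 156 CPM, limma adjusted p = 2.92e-39) and 1.82-fold under BaP (274 against 155 CPM, limma adjusted p = 2.46e-24). FTL, the ferritin light chain, rose by log2 1.16, 0.97 and 0.26 under CSC, BaP and NNK. In FAT1 cells under DMSO 5 of the 20 targets were lower and 1 was higher than in GFP cells, where 7.7% of all genes were lower and 6.39% higher, NQO1 among the former (71.8 against 178 CPM, limma adjusted p = 5.72e-16). In CDKN2A cells 6 of 21 were higher and 3 lower than in GFP cells, against 8.64% and 9.22% of all genes. Compared with HCRED cells, 4 of 19 were higher in NRF2 cells, where 3.39% of all genes were higher and 1.52% lower. In PIK3CA cells 5 of 20 were higher, against 3.36% higher and 2.05% lower over all genes. In FGFR1 cells 3 of 20 were higher, against 0.501% higher and 0.413% lower. In NRG1 cells 2 of 20 were higher and 1 lower, against 2.08% and 0.998%. Between the controls, 4 of 19 were higher and 3 lower in GFP than in HCRED cells, against 5.94% and 4.86%. The median log2 change of the list was 0.43 under CSC, 0.25 under BaP and 0.08 under NNK. Of the 8 regulators of NRF2, such as its inhibitor KEAP1 and the autophagy receptor SQSTM1, 7 were tested, and 2 rose under CSC, 1 under BaP and 0 under NNK. SQSTM1 rose by log2 0.69 under CSC and 1.01 under BaP.

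The aryl hydrocarbon receptor battery, the genes this receptor switches on when it binds polycyclic aromatic hydrocarbons, rose in 5 of 7 tested genes under CSC and in 5 of 8 under both BaP and NNK. CYP1B1, a cytochrome P450 that activates benzo[a]pyrene, rose by log2 3.65, 3.42 and 1.54 under CSC, BaP and NNK. CYP1A1, another such enzyme, rose by log2 4.54 under BaP and 2.18 under NNK, and it also passed as higher under CSC. Its population means were 11.6 to 77.1 CPM under CSC, against 1.57 to 2.40 CPM under DMSO in the same populations. Among 20 enzymes outside the AKR1 family that metabolise benzo[a]pyrene or NNK, 10, 9 and 10 were tested, and 5 rose under each chemical. Of 15 other carbonyl and aldehyde enzymes tested, 3 rose and 1 fell under CSC, 4 rose under BaP and 4 under NNK. ALDH1A3, which makes retinoic acid, rose by log2 0.97 under CSC and 0.98 under BaP. CBR1, a carbonyl reductase that also acts on NNK, rose by log2 0.30 under NNK (limma adjusted p = 0.000725). In the retinoid list 2 of 8 genes rose under CSC, 2 of 9 under BaP and 1 of 9 under NNK. DHRS3, a retinal reductase, was among them each time (log2 0.81, 1.17 and 0.46). Of the 4 polyol pathway and osmotic response genes tested 0 changed under CSC or BaP and 1, the inositol transporter SLC5A3, fell under NNK (log2 -0.53, limma adjusted p = 0.0202). Of the prostaglandin enzymes, 2 of 10 rose under CSC, 1 of 10 under BaP and 2 of 9 under NNK. PTGR1, a prostaglandin reductase, rose by log2 0.47 under CSC and 0.37 under BaP. Some genes stand in more than 1 of these lists, NQO1 and CBR1 among them.

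The genes whose pattern was most like each member were taken by Pearson's r of log2 CPM over the 25 group means, among 5017 genes with a mean of at least 10 CPM. The groups share chemicals, controls and plate positions, so r is given as a description. For AKR1C3 these were NQO1 (r = 0.895), GPX2, a glutathione peroxidase (0.877), and TXNRD1, thioredoxin reductase (0.785). For AKR1C1 they were GPX2 (0.845), NQO1 (0.838) and CAPG (0.744). AKR1C2 had none of these among its nearest 3, which were TIMP3 (0.822), PI3 (0.821) and AUP1 (0.819). AKR1B10 was most like GSTA4, a glutathione transferase (0.871), KRT17, a basal keratin (0.832), and KRTDAP (0.742). AKR1A1 was closest to ABLIM1 (0.773), and AKR1B1 to C12orf57 (0.726). Among the 6 genes AKR1C1 and AKR1C3 had the highest r, 0.913, above AKR1C1 with AKR1C2 (0.76). AKR1B1 and AKR1B10, neighbours on the chromosome, had an r of 0.032.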

How the data were processed

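The deposited files held raw UMI counts per gene for each well, not normalized. Per the study's methods, reads of 46 bases were aligned by BWA 0.7.10 to RefSeq transcripts of hg19, and the authors received a table in which each UMI of a well was counted once, when it matched a single gene. UMIs that fit several near-identical genes would then be left out of these counts. Groups and replicate numbers came from the sample titles. The study describes the wells of a group as biological replicates grown in 24-well plates. The sources do not say whether the wells of a population came from separately engineered cells. The limma p-values combine a gene's spread between wells with a variance pooled over genes. Between populations under DMSO, the pooled variance counted for 40.5 (GFP against HCRED cells) to 100 (CDKN2A against GFP cells) degrees of freedom. For FGFR1 cells this number was infinite. These p-values therefore rest mainly on the pooled variance, not on the spread of the few wells compared. The 13 wells with 2-digit replicate numbers entered alternatives only.

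Counts were tested with limma 3.58.1 (voom weights, R 4.3.3) and TMM factors from edgeR 4.0.16, keeping genes whose mean count exceeded 1. P-values were two-sided and adjusted by Benjamini-Hochberg over all genes tested, with a threshold of 0.05. Chemicals were compared with population as a covariate, and differences between populations by a moderated F statistic. CPM is the count divided by the well's total. Alternatives were other size factors, no filter, edgeR, DESeq2 1.42.0, a replicate block, left-out wells and populations, and, chosen after seeing the data, the summed AKR1C counts and DESeq2 without independent filtering. All 6 genes were named in every comparison, with up to 3 genes of each list by adjusted p, and the 3 most alike genes of each member. The genes and lists were chosen with earlier results of these data known. Gene positions came from a GENCODE annotation of hg19. The scripts were tested on simulated data.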

Additional observations from a re-analysis of the deposited data

Results flagged for a closer look

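The 13 wells with 2-digit replicate numbers, which the main comparisons do not use, held values above every DMSO well of the same population for 19 of 36 pairs of one of the 6 genes and one of 6 groups, and below every such well for 2 pairs, both of AKR1A1 in FGFR1 cells (CSC and BaP). Over all genes with a mean count above 1 in the wells compared, 9.64% of pairs lay above and 17.2% below, and the share above ran from 5.46% (CDKN2A cells, CSC) to 15.2% (NRG1 cells, CSC). In CDKN2A cells under CSC, for which the main comparisons had no group, the mean of 3 such wells was 18.0 CPM for AKR1B10, 14.0 CPM for AKR1C1, 20.5 CPM for AKR1C2 and 62.2 CPM for AKR1C3. The DMSO means of CDKN2A cells for the last 3 genes were 4.73, 9.62 and 23.7 CPM. In FGFR1 cells under CSC the mean of 2 such wells was 81.7 CPM for AKR1B1, 18.6 CPM for AKR1C1, 21.2 CPM for AKR1C2 and 58.3 CPM for AKR1C3. In NRG1 cells under CSC it was 66.9 CPM for AKR1B1, 8.24 CPM for AKR1B10, 15.0 CPM for AKR1C1, 12.7 CPM for AKR1C2 and 45.9 CPM for AKR1C3. In the 2-digit wells the 3 AKR1C genes were thus above DMSO in each of these 3 populations under CSC. The 1-digit well of FGFR1 cells under CSC did not match them for every gene. It held 16.5 CPM of AKR1C2, within the DMSO wells (11.1 to 17.5 CPM), and 52.4 CPM of AKR1B1, below them (60.8 to 72.1 CPM). Its AKR1C1 and AKR1C3, at 13.6 and 53.3 CPM, were above the DMSO wells. The 1-digit well of NRG1 cells under CSC was above DMSO for AKR1C1, AKR1C2 and AKR1C3, at 15.9, 21.2 and 53.1 CPM. The labels do not say whether the 2-digit wells of a group were separate cultures, so they do not count as independent replicates.

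Under BaP, 2 such wells of HCRED cells had a mean of 30.4 CPM for AKR1C2 and 52.7 CPM for AKR1C3, and 2 of FGFR1 cells had 40.1 CPM for AKR1C3. In CDKN2A cells under NNK the mean of 2 wells was 7.41 CPM for AKR1C1, 13.7 CPM for AKR1C2 and 28.3 CPM for AKR1C3. The 1-digit well of that group held 3.84, 8.95 and 25.6 CPM of these genes, each within the range of the DMSO wells. No test was run on the 2-digit wells alone.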

How the results depend on the processing

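The counts of the 6 genes past the threshold that follow are by limma-voom unless another tool is named. For CSC against DMSO the count was 3 and became 5 with all wells as separate samples, and 5 with the 2-digit wells summed by first digit. With either of these, CSC against BaP went from 0 to 2. The share of all genes that passed in these fits is not given here, so the higher counts are not a result about the 6 genes. The count of 1 for NNK against DMSO became 0 with no filter on low counts, 0 without NRF2, FGFR1, PIK3CA, GFP or FAT1 cells, and ran from 0 to 2 when wells were left out. BaP against NNK, at 2, became 1 without NRF2 cells and ran from 1 to 2 with wells left out. AKR1C3 for CSC against BaP, log2 0.05, was -0.11 without PIK3CA cells and passed in neither. Other differences with a log2 size under 0.3 also changed sign in some settings, and passed neither there nor in the fit reported.

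Under DMSO, NRF2 cells went from 0 to 1 by edgeR, to 2 over all chemicals and to between 0 and 1 with wells left out. PIK3CA cells went from 2 to 1 with median-ratio size factors, no filter or a single fit over all groups, to 0 by DESeq2 without independent filtering, to 4 over all chemicals and to between 0 and 2 with wells left out. FAT1 cells went from 2 to 1 with no filter, 0 by DESeq2 (with or without independent filtering) or a single fit, 5 over all chemicals and between 0 and 2 with wells left out. CDKN2A cells went from 1 to 0 by DESeq2, with or without that filtering, and to between 0 and 1 with wells left out, and GFP against HCRED cells from 2 to 0 by DESeq2 without that filtering, 4 over all chemicals and between 1 and 2 with wells left out. NRF2 cells under CSC went from 1 to 0 with median-ratio size factors, no filter, DESeq2 without that filtering, a single fit or some single wells left out. The test of BaP responses between populations went from 0 to 1 by edgeR, and the 16 single-population responses became 5 by DESeq2, which gave no adjusted p for 6 of them, and 7 without its independent filtering. The cause of these changes was not tested.

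Same-numbered wells deviated together little, if at all (r of their deviations from -0.244 to 0.192, median at most 0.055). A well correlated best with its own number in 8 of 15 pairs for CSC, 6 of 15 for BaP and 11 of 21 for NNK against DMSO. For CSC against BaP it was 8 of 12. In NRF2 against HCRED cells under DMSO all 3 pairs did so, and in FGFR1, NRG1 and PIK3CA cells 0 of 3. Whether this exceeded what unpaired wells give was not tested. With a replicate block, NRF2 cells under DMSO went from 0 to 1, NRF2 cells under CSC from 1 to 0, and the BaP difference between populations from 0 to 1, and the other counts stayed within 1.5 times. Of all settings, 188 counts stayed within 1.5 times of the main value or on the same side, 14 rose and 46 fell. AKR1C1, AKR1B10 and AKR1C2 had few counts in some wells, and small differences in them could not be detected at this depth.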
